A study of Rattus norvegicus with 6 samples.

Results

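Genes of the cell's sodium and calcium balance were followed in the heart primordium of rat embryos before and after the first heartbeat. They were Slc8a1 (the cardiac sodium-calcium exchanger), Atp1b1, Atp1b2 and Atp1b3 (the beta subunits of the sodium pump), Fxyd1 (phospholemman, a small regulator of that pump), and Atp2b1 and Atp2b4 (calcium pumps of the plasma membrane). Members were all probes, other than controls, whose gene name on the array was 1 of these 7 names, which gave 11 of the 30367 probes. RNA of heart primordia of Wister rat embryos on embryonic day 10 was hybridized to 1-color Agilent arrays, with 3 pre-heartbeat and 3 post-heartbeat arrays. The study compared them to learn how the metabolism of the primordium meets the energy demand of the first beats. The study set the groups apart by the shape of the primordium, flat before and raised after the start of contraction. Its post-heartbeat embryos also had more somites, with some overlap, so the developmental stage differed and cannot be told apart from the heartbeat. The labels give the groups the same strain and day and no treatment. The replicates are called biological, but how many embryos made up a sample is not given in the sources used here, and p measures only the spread between these samples. RNA came from whole primordia, so that more cells of a type and more RNA per cell cannot be told apart.

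In a muscle cell of the heart, calcium that has entered for a contraction is removed again. The sodium-calcium exchanger carries most of it out of the cell against an inward flow of sodium, and the calcium pumps of the plasma membrane remove a smaller share with ATP. The sodium gradient that drives the exchanger is kept up by the sodium pump, which needs its beta subunit to reach the membrane, and phospholemman lowers its affinity for sodium until it is phosphorylated.

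The probes that carry the result on the exchanger are shown because they lie in separate parts of its transcript, and the longest run of bases shared between them was 5. All are 60 bases long and read 5′ to 3′, and the number in each name is the base of the transcript at which the probe starts.
Slc8a1 base 1252: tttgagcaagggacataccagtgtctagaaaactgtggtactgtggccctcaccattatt
Slc8a1 base 2018: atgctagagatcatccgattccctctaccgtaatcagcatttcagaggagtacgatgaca
Slc8a1 base 2768: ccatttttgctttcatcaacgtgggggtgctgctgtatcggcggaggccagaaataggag
In the rn4 genome of the array annotation they lie on the minus strand, base 1252 at chr6:4690405-4690464 and base 2768 at chr6:4421341-4421400. The probe at base 2018 is given the range chr6:4465106-4469831, which spans 4726 bases and therefore crosses an intron. A probe of Atp2b1 (1 spot per array) and the probe of Fxyd1 (2 spots) are shown too. The probes of Atp1b1 and Atp1b2, which are not shown, also had 2 spots.
Atp2b1 base 3977: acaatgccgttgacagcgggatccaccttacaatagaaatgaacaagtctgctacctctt
Fxyd1 base 166: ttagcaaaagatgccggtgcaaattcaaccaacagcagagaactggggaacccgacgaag
The probe of Atp2b1 lies on the plus strand at chr7:36600030-36600089, and the Fxyd1 probe has no position in the annotation.

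Signals are log2 intensities less the 75th percentile of the array, so that 0 is the brightness of that percentile, and differences are the post-heartbeat mean less the pre-heartbeat mean. The 75th percentile lay between 1146 and 1702 intensity units, between 19294 and 20405 probes per array were well above background, and 0 spots were saturated. Tests covered the 19299 probes that were well above background throughout the pre-heartbeat arrays, the post-heartbeat arrays or both. The arrays were on 2 slides. Pre-heartbeat replicate 1 shared slide 1 with post-heartbeat replicates 1 and 2, while pre-heartbeat replicates 2 and 3 and post-heartbeat replicate 3 were on slide 2. The first principal component (60.3% of the variance) separated the slides, and 3537 probes differed between them. Since each slide carried arrays of both groups, every difference was also computed in limma with a term for the slide (the slide as a block) and within each slide. Of 16 cardiac muscle markers, such as the troponin Tnnt2 (6.32 to 7.34 on the 6 arrays), 16 were tested. Their mean signal per array was 1.98 to 2.32 before and 2.73 to 2.77 after heartbeat initiation, and 15 of the 16 differences were above 0, with a median of 0.58. Markers of other cells that a dissection could include were present too. The mean signal of neural ectoderm markers was -1.42 to -1.06 before and -1.91 to -1.49 after, that of endoderm markers 0.75 to 1.54 and 0.40 to 1.07, that of endothelial markers -1.05 to -0.58 and -1.08 to -0.80, that of erythroid markers -2.34 to -1.73 and -1.87 to -1.36, and that of paraxial mesoderm markers -0.67 to 0.12 and -0.25 to 0.35. The part of these shifts in the results on the 7 genes was not tested.

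After heartbeat initiation, the sodium pump's beta subunit Atp1b1 was 1.98 fold brighter. Fxyd1 (1.87 fold) and Atp1b2 (1.37 fold) were also brighter on every post-heartbeat array than on any pre-heartbeat array, and Atp1b3 was not. The exchanger was brighter within each slide by a similar amount, and Atp2b1 was dimmer on slide 1, while on slide 2 its probes differed by 0.12 and -0.051. Of the 7 genes, 6 were tested, with 9 probes. With limma adjusted over all tested probes, 0 of the 6 passed, while 0.119% of the tested probes were called higher and 0.0207% lower. At an unadjusted limma p under 0.05 there were 3 of the 6 (Atp1b1, Atp1b2 and Fxyd1), beside 7.01% of the tested probes in either direction. The Tukey HSD test with Benjamini-Hochberg adjustment called 0 of the 6. It also called 0 of all tested probes in either direction, so that count says nothing particular about the members. With the slide as a block, 1 of the 6 was called higher (Atp1b1), beside 1.16% of the tested probes, and 0 lower, beside 0.461%. The rule of the study's methods, at least 1.5 fold and p under 0.05 before adjustment by the Tukey HSD test, selected 2 genes as higher (Atp1b1 and Fxyd1) beside 1.89% of the tested probes, and 0 as lower beside 1.15%. The median difference of the 6 genes was 0.35, against -0.021 for the 11938 tested genes. As the genes were chosen with earlier results of these data known, these counts and this median describe them and do not test them as a set.

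**Figure D1:**
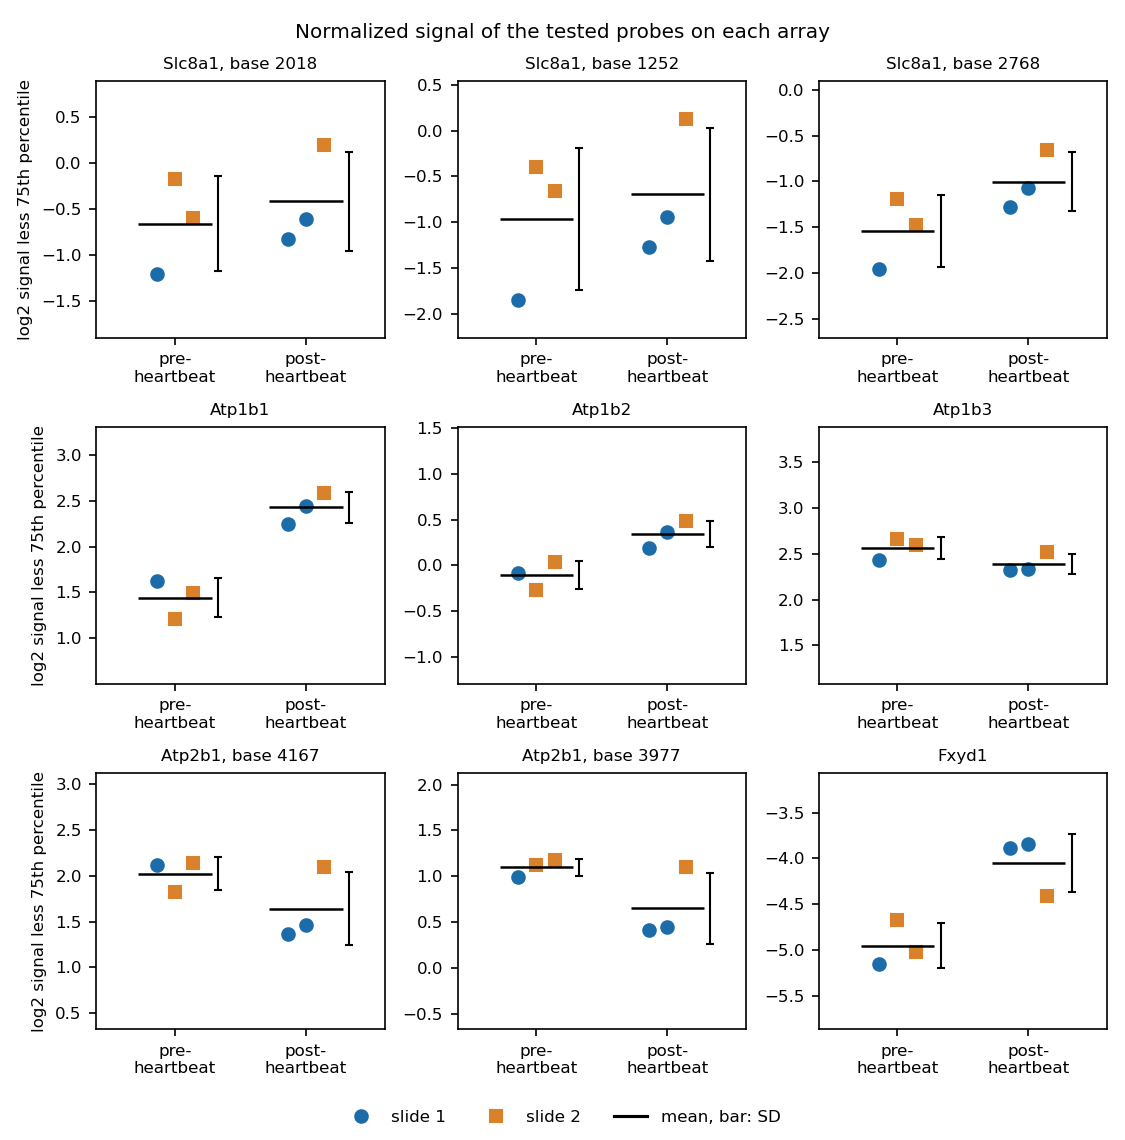
Log2 signal less the 75th percentile of the array (vertical axis, each panel spans the same number of units) for the 9 tested probes, with 1 point per array, circles for slide 1 and squares for slide 2, a line at the mean and a bar of 1 SD (n = 3). The 3 post-heartbeat arrays lie above all 3 pre-heartbeat arrays for Atp1b1, Atp1b2 and Fxyd1. The slides lie apart for Slc8a1 at base 1252 and, narrowly, at base 2018, and overlap at base 2768.

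The brightest of the 3 probes of Slc8a1, at base 2018, was spotted 10 times on each array. Its signals were -1.21, -0.18 and -0.59 in pre-heartbeat replicates 1 to 3, and -0.83, -0.61 and 0.20 in post-heartbeat replicates 1 to 3. The groups overlapped, and in both groups the slide 1 arrays were the low ones. The difference of 0.25 (SE 0.35, 95% interval -0.58 to 1.07) did not exceed the replicate spread (limma adjusted p = 0.868, exact permutation p = 0.7). Slide 2 was brighter than slide 1 by 0.83 before and by 0.92 after heartbeat initiation, and these gaps exceeded the difference between the groups. Within slide 1 the post-heartbeat arrays were higher by 0.49, and within slide 2 by 0.58. The fit with the slide as a block gave 0.54 (SE 0.16, 95% interval 0.16 to 0.91, limma adjusted p = 0.233). Spots of this probe on the same array differed by an SD of 0.047 to 0.073, which is small beside either gap. Without the block, leaving out post-heartbeat replicate 3 turned the difference to -0.061 and leaving out pre-heartbeat replicate 1 turned it to -0.030.

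The other probes of Slc8a1, each spotted once, gave a like pattern. The probe at base 1252 had -1.85, -0.40 and -0.66 before, and -1.28, -0.94 and 0.12 after heartbeat initiation. Its groups overlapped, and the lowest array was again pre-heartbeat replicate 1. The difference was 0.27 (SE 0.48, limma adjusted p = 0.882, exact permutation p = 0.7), and it was 0.74 within slide 1 and 0.65 within slide 2. With the slide as a block it was 0.70 (SE 0.16, limma adjusted p = 0.0921). The probe at base 2768, near the end of the coding part of the transcript, had -1.96, -1.19 and -1.48 before, and -1.28, -1.07 and -0.66 after. Here the groups overlapped only through pre-heartbeat replicate 2, which was above post-heartbeat replicate 1. The difference was 0.54 (SE 0.25, limma adjusted p = 0.795, exact permutation p = 0.2), with 0.79 within slide 1 and 0.68 within slide 2, and the fit with the slide as a block gave 0.73 (SE 0.15, limma adjusted p = 0.0650). Thus all 3 probes were higher after heartbeat initiation within both slides, as were 24.7% of all tested probes. With all 6 arrays none of the 3 passed the threshold with or without the slide as a block. Slide 1 held only 1 pre-heartbeat array, replicate 1, and slide 2 only 1 post-heartbeat array, replicate 3. These were the lowest and the highest array for each probe, and the probes share the same RNA samples. Leaving out pre-heartbeat replicate 2 in the fit with the slide as a block gave 0.80 for the probe at base 2768, which then passed (limma adjusted p = 0.0346). With both the slide as a block and the normexp background correction, the probes at bases 1252 (0.64, limma adjusted p = 0.0168) and 2768 (0.65, limma adjusted p = 0.0133) passed it, and the probe at base 2018 (0.50, limma adjusted p = 0.114) did not. The left-out array and normexp, each combined with the block, were chosen after seeing the data. The share of all tested probes that those fits call was not computed.

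Atp2b1, a calcium pump found in most cell types, had 2 probes. The brighter one, at base 4167 (chr7:36600220-36600279), had 2.12, 1.82 and 2.14 before and 1.36, 1.47 and 2.10 after heartbeat initiation. Only the slide 1 arrays of the post-heartbeat group were low, whereas post-heartbeat replicate 3 lay within the pre-heartbeat values. The difference of -0.38 (SE 0.23, 95% interval -0.92 to 0.15) did not pass the threshold (limma adjusted p = 0.866, exact permutation p = 0.2). It was -0.70 within slide 1 and 0.12 within slide 2, so that its direction turned with the slide, and the fit with the slide as a block gave -0.29 (limma adjusted p = 0.865). The probe at base 3977 had 0.997, 1.12 and 1.18 before and 0.41, 0.44 and 1.10 after. Again the post-heartbeat arrays of slide 1 were the low ones. Its difference was -0.45 (SE 0.21, limma adjusted p = 0.813), with -0.57 within slide 1 and -0.051 within slide 2, and the fit with the slide as a block gave -0.31 (limma adjusted p = 0.635).

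Atp2b4, the calcium pump known from red cells and excitable tissue, was near background. Its probe at base 3550 (chr13:46635643-46635702) was well above background on 0 of 6 arrays, and its probe at base 3652 (chr13:46631595-46631654) on 1 array, post-heartbeat replicate 3. Their intensities lay between 4.14 and 40.2 units, so this gene was not tested and no difference between the groups is given.

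Atp1b1, the main beta subunit of the heart and many epithelia, had 1 probe (chr13:80214142-80214201, minus strand) with 2 spots per array. Its signals were 1.62, 1.21 and 1.49 in the pre-heartbeat group (mean 1.44 ± 0.21, SD, n = 3) and 2.25, 2.45 and 2.59 in the post-heartbeat group (2.43 ± 0.17, SD, n = 3). The lowest post-heartbeat array was 0.63 above the highest pre-heartbeat array. The difference of 0.99 (SE 0.17, 95% interval 0.58 to 1.39), a 1.98 fold change, ranked 116 by p among all tested probes and did not pass the adjusted threshold (limma adjusted p = 0.109). The exact permutation test gave p = 0.1, the smallest that 3 arrays against 3 allow. It was higher within slide 1 by 0.73 and within slide 2 by 1.24. The mean signal of the cardiac muscle markers was above its pre-heartbeat range on all 3 post-heartbeat arrays too, and its part in the differences of Atp1b1, Atp1b2 and Fxyd1 was not tested. With the slide as a block, the difference was 0.98 (SE 0.17), and it then passed the threshold (limma adjusted p = 0.0399). Leaving out an array in that fit gave 0.73 to 1.24, and 3 of the 6 fits still passed, with adjusted p between 0.0389 and 0.443. The call was also absent with quantile normalization in that fit (0.98, limma adjusted p = 0.0721), and over all alternatives with and without the block the limma adjusted p ranged from 4.2e-04 to 0.489.

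Atp1b2, the beta subunit known best from glia and also found in heart, had 1 probe (chr10:56418392-56418451, minus strand) with 2 spots. It had -0.08, -0.27 and 0.03 before and 0.19, 0.36 and 0.48 after heartbeat initiation. The groups did not overlap, with a gap of 0.16. The difference of 0.45 (SE 0.15, 95% interval 0.09 to 0.81), a 1.37 fold change, did not pass the threshold (limma adjusted p = 0.513, exact permutation p = 0.1). It was 0.36 within slide 1 and 0.60 within slide 2, and 0.48 in the fit with the slide term (limma adjusted p = 0.268).

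Atp1b3, a beta subunit of wide expression, had 1 probe (chr8:101406203-101406262, minus strand) with 10 spots on each array. Its signals were 2.43, 2.66 and 2.60 before and 2.33, 2.34 and 2.52 after heartbeat initiation. The spread within a group was small, and the groups overlapped. The difference of -0.17 (SE 0.14, 95% interval -0.50 to 0.16) did not pass the threshold (limma adjusted p = 0.866, exact permutation p = 0.2), and this interval leaves out a change of the size estimated for Atp1b1. It was lower within slide 1 by 0.099 and within slide 2 by 0.11, and the slide as a block gave -0.11 (limma adjusted p = 0.991).

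Fxyd1, which binds to the sodium pump, was dim, at 44.7 to 98.2 intensity units, yet was well above background on all 6 arrays. It had -5.16, -4.68 and -5.02 before (mean -4.95 ± 0.25, SD, n = 3) and -3.89, -3.85 and -4.41 after heartbeat initiation (-4.05 ± 0.31, SD, n = 3). The groups did not overlap, with a gap of 0.27, although the pair of spots on 1 array differed by an SD of up to 0.40. The difference of 0.90 (SE 0.21, 95% interval 0.40 to 1.41), a 1.87 fold change, met the rule of the study's methods but not the adjusted threshold (limma adjusted p = 0.237, exact permutation p = 0.1). It was 1.29 within slide 1 and 0.44 within slide 2, and 0.87 with the slide as a block (limma adjusted p = 0.118). With the normexp background correction, which adds an offset of 50 to each signal, the difference was 0.39 (limma adjusted p = 0.951). Leaving out pre-heartbeat replicate 2 in the fit with the slide as a block gave 1.0 (limma adjusted p = 0.0466). That setting was chosen after seeing the data, and the share of all tested probes it calls was not computed.

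**Figure D2:**
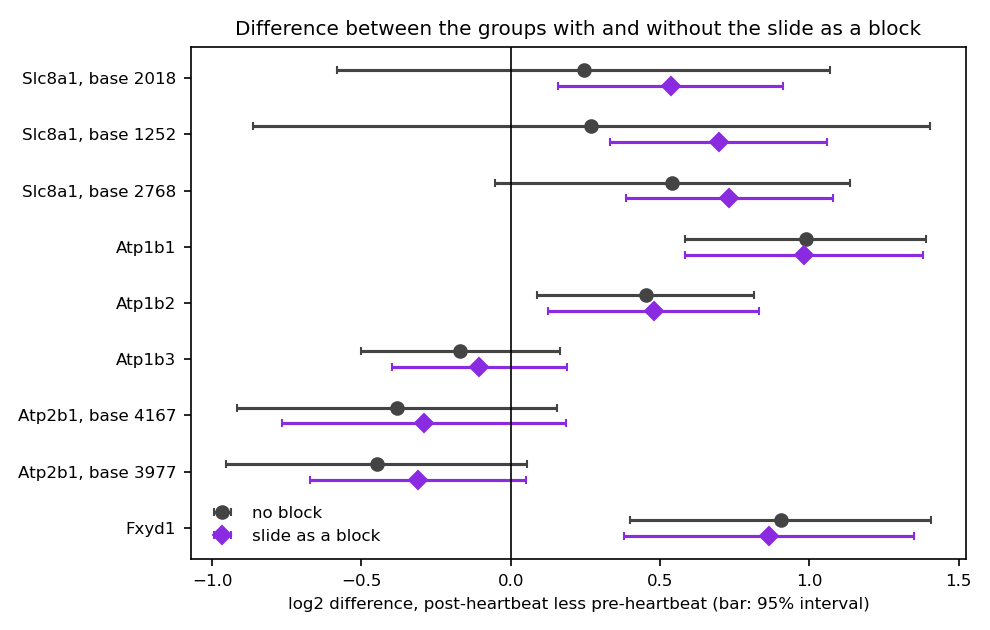
Log2 difference between the groups (horizontal axis, post-heartbeat less pre-heartbeat) for the 9 tested probes, with 95% intervals from limma, as circles without a block and diamonds with the slide as a block. For Slc8a1 the intervals are narrower with the block and lie above 0, from 0.16 to 0.91 for base 2018, whereas for Atp1b1 both estimates are alike, at 0.99 and 0.98.

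Among the 6 tested genes, 3 were higher after heartbeat initiation with groups that did not overlap (Atp1b1, Atp1b2 and Fxyd1), as were 5.38% of all tested probes, and 0 were lower in this way, beside 6.14%. Within both slides, 4 of the 6 genes were higher, beside 24.7% of all tested probes, and 1 was lower (Atp1b3), beside 25.2%. The sixth was Atp2b1, whose brighter probe turned direction between the slides (-0.70 and 0.12), whereas its probe at base 3977 did not (-0.57 and -0.051). These counts, too, only describe genes that were chosen with earlier results known.

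Whether members moved unequally was asked by taking the difference of their log2 signals on the same array, in which a shift of the whole array cancels. Atp1b1 less Atp1b3 was -0.81, -1.45 and -1.11 before and -0.08, 0.11 and 0.07 after heartbeat initiation. The groups did not overlap, and the ratio of these beta subunit signals was 2.23 fold higher after heartbeat initiation, a log2 change of 1.16 (exact permutation p = 0.1, adjusted p = 0.2 over the 4 pairs compared). It was 0.82 within slide 1 and 1.35 within slide 2. Atp1b2 less Atp1b1 was -1.70, -1.48 and -1.46 before and -2.06, -2.08 and -2.11 after. These values did not overlap either, with a change of -0.54 (exact permutation p = 0.1, adjusted p = 0.2), and every post-heartbeat array lay below every pre-heartbeat array. The change was -0.37 within slide 1 and -0.64 within slide 2. With 3 arrays per group, 0.1 is the smallest p for each pair before adjustment, and none can pass a threshold of 0.05.

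Fxyd1 less Atp1b1 was -6.78, -5.89 and -6.52 before and -6.14, -6.29 and -7.00 after heartbeat initiation, with groups that overlapped. The change of -0.083 (exact permutation p = 0.9, adjusted p = 0.9) was 0.57 within slide 1 and -0.80 within slide 2. Slc8a1 less Atp2b1 was -3.33, -2.0 and -2.73 before and -2.19, -2.08 and -1.91 after. The groups overlapped through pre-heartbeat replicate 2 alone, and the change was 0.63 (exact permutation p = 0.3, adjusted p = 0.4), with 1.19 within slide 1 and 0.46 within slide 2. It was 0.30 without pre-heartbeat replicate 1 and 0.97 without pre-heartbeat replicate 2. The 2 pairs with Atp2b4 were not compared, as this gene was near background.

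**Figure D3:**
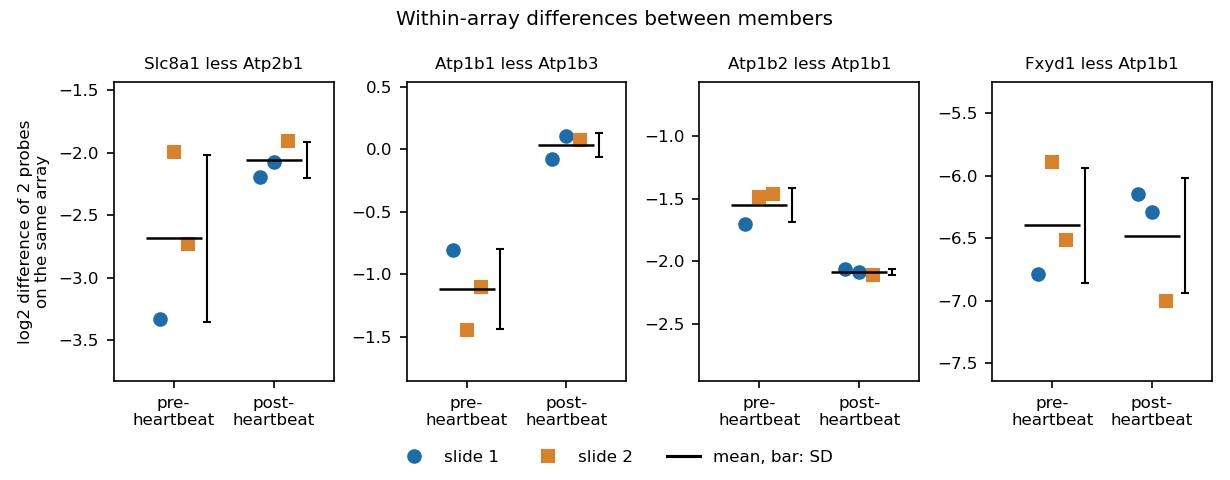
Difference of the log2 signals of 2 members on the same array (vertical axis) for the 4 pairs, with 1 point per array, circles for slide 1 and squares for slide 2, a line at the mean and a bar of 1 SD (n = 3). The level depends on the probes and only the change between the groups can be read: Atp1b1 less Atp1b3 and Atp1b2 less Atp1b1 do not overlap between the groups, and the other pairs do.

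The remaining genes of the pump and exchanger families moved in both directions. Of 16 genes on the array, 11 were tested. With limma 0 were called in either direction, and 7 of the 11 differences were above 0, with a median of 0.11. The rule of the study's methods selected 1 of the 11 as higher, beside 1.89% of the tested probes, and 2 as lower, beside 1.15%. Slc8b1, the mitochondrial sodium-calcium exchanger, had -3.95, -4.11 and -3.78 before and -3.60, -3.77 and -3.81 after heartbeat initiation. Its groups overlapped, and the difference was 0.22 (limma adjusted p = 0.866). Atp2b3, a calcium pump best known from neurons, also differed by 0.22 (limma adjusted p = 0.866). Fxyd4, Slc8a2, Slc8a3 and Atp2b2 were not well above background on enough arrays to be tested.

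Atp1b4, which is related to the beta subunits but is known in mammals as a protein of the nuclear membrane of muscle, was lower after heartbeat initiation. It had -3.97, -3.66 and -4.29 before and -5.53, -5.28 and -4.97 after, without overlap. The difference of -1.28 (SE 0.22, limma adjusted p = 0.109) was -1.43 within slide 1 and -0.99 within slide 2, and with the slide as a block it was -1.21 and passed the threshold (limma adjusted p = 0.0367). Fxyd3, a relative of phospholemman found mainly in epithelia, was also selected as lower by the rule of the study's methods (-0.95, SE 0.25, limma adjusted p = 0.301). It had -2.20, -1.27 and -1.72 before and -2.51, -2.84 and -2.68 after.

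Calcium transport into organelles held the only genes of the 4 transport lists that rose in limma without a block, 2 of the 9 tested of 11 on the array. Pln, phospholamban, the inhibitor of the calcium pump of the sarcoplasmic reticulum, had -2.69, -2.68 and -2.51 before and -0.51, 0.04 and -0.25 after heartbeat initiation. The difference was 2.39 (SE 0.18, limma adjusted p = 0.0179), with 2.46 within slide 1 and 2.35 within slide 2. Atp2a1, a sarcoplasmic reticulum calcium pump typical of fast skeletal muscle, had -3.04, -3.54 and -3.33 before and -1.38, -1.18 and -1.41 after, a difference of 1.98 (SE 0.17, limma adjusted p = 0.0199). Both lay apart between the groups by more than the spread of the replicates. With the slide as a block they passed as well (limma adjusted p = 0.0033 for Pln and 0.00353 for Atp2a1), whereas in the fit without a block 0 of these genes passed when any 1 array was left out. For Atp2a2, the cardiac pump of the sarcoplasmic reticulum, the brighter of its probes differed by -0.092 (limma adjusted p = 0.869) and the other by 1.06, so that the probes of this gene disagreed. The median of the 9 genes was 0.057.

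Of the 21 genes of sodium entry and sodium-coupled transport, 8 were tested, and limma called 0. The median of the 8 genes was 0.0051. The rule of the study's methods selected 1 of the 8 as higher, beside 1.89% of the tested probes, and 0 as lower, beside 1.15%. With the slide as a block, 1 was called higher, beside 1.16%, and 0 lower, beside 0.461%. Of 10 genes for partners of the pumps, 10 were tested and limma called 0, with a median of -0.084. Cav3, caveolin of muscle, was well above background on 0 of 3 arrays before and 3 of 3 after heartbeat initiation, which makes it at least 4.34 fold brighter after (limma adjusted p = 0.0577, and 0.0160 with the slide term). Both p rest on pre-heartbeat signals that were not well above background, and the probe was tested only because of its post-heartbeat arrays. The bound sets the mean of the brighter group against the lowest signal well above background on each array, or the probe's own signal where this is higher. Ank2, ankyrin-B, which holds the exchanger and the pump at the membrane, was well above background on 3 of 3 arrays before and 0 of 3 after. By its group means it was at least 2.46 fold brighter before (limma adjusted p = 0.329, with the same limit for its post-heartbeat signals). Its difference was -2.12 within slide 1 but -0.75 within slide 2, so this bound does not hold within each slide.

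**Figure D4:**
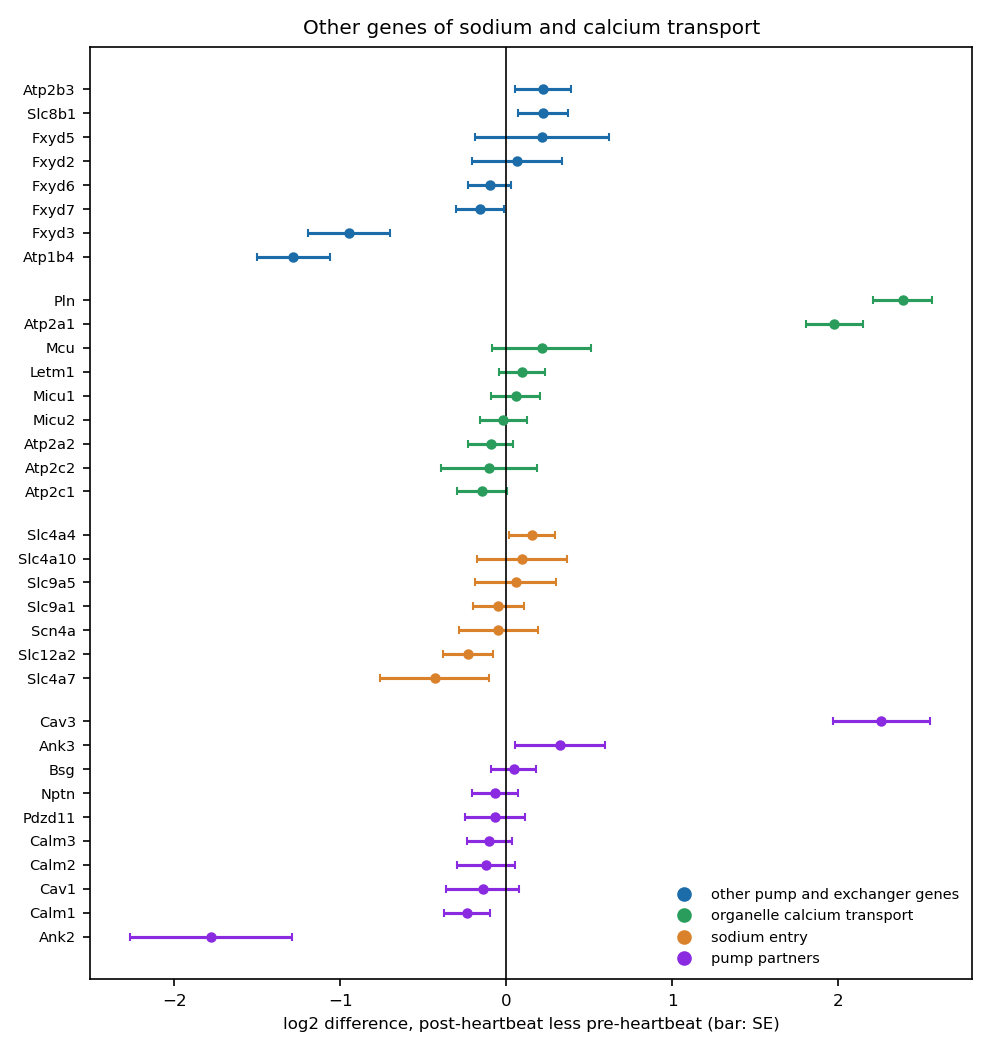
Log2 difference between the groups (horizontal axis, post-heartbeat less pre-heartbeat) for tested genes of the 4 lists of sodium and calcium transport, by its brightest tested probe, with bars of 1 SE from limma and 1 color per list. Some tested genes of these lists are not reported here and are left out of the figure. Most of the genes shown lie near 0, whereas Pln (2.39), Atp2a1 (1.98) and Cav3 lie far to the right and Atp1b4 (-1.28) and Ank2 to the left, with Cav3 and Ank2 below background in 1 group.

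The promoters of Atp1b2 and Fxyd1, members that were brighter on every post-heartbeat array, are shown over the 250 bases before the RefSeq start (GRCr8). Capitals mark matches to CANNTG, the E-box bound by bHLH factors, which reads the same on both strands.
Atp1b2, chr10:54823709-54823958, minus strand: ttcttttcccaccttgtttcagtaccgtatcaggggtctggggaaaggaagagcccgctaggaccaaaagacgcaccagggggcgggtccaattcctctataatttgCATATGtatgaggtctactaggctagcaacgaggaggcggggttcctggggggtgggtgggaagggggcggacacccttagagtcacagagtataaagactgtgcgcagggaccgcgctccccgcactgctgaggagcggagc
Fxyd1, chr1:95418581-95418830, minus strand: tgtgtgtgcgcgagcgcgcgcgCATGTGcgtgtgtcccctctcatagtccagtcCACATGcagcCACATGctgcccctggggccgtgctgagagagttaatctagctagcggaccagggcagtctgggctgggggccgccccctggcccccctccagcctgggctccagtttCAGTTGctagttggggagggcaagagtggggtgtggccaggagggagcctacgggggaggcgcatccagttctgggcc
The promoter of Fxyd1 held 4 matches, starting 228, 196, 186 and 78 bases before the start, that of Atp1b2 held 1 at 143 bases and that of Slc8a1 held 1 at 88 bases. Those of Atp1b3, Atp2b1 and Atp2b4 held 0. At least 1 match was found in 65.5% of the 33469 promoters of the same length. GATAA, the core of GATA factor sites, was in 23.5% of all promoters and in 0 of the 6 listed members, and AAGTG, part of the NKX2-5 site, was in 40.6% and in 1 member, Atp2b4. The sites of MEF2 (3.0% of all promoters) and the CArG box (1.5%) were matched in 0 of the 6. Matches were searched on both strands, and the promoter of Atp1b1 was not analysed here.

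The genes whose signal followed that of a member most closely over the 6 arrays were listed as a description, from 11937 tested genes. For Atp1b1 they were Fry (Pearson's r = 0.99), Myo16 (0.99) and Klhl31 (0.99), for Atp1b2 Sypl2 (0.996), Ndrg4 (0.99) and Ddah1 (0.99), and for Fxyd1 RGD1564637 (0.99), Pygm (0.99) and Dnajc4 (0.99). For Slc8a1 they were Cfi (0.99), Epha7 (0.99) and Qrfprl (0.99), for Atp2b1 Tnrc6a (0.99), Tbc1d31 (0.99) and Pdzd8 (0.98), and for Atp1b3 Smc2 (0.997), Zfp418 (0.996) and Spon2 (0.996). The arrays of a slide shared its shift, and with only 6 arrays many genes reach a high r. Of the neighbours of Atp1b1, Fry differed by 0.73, Myo16 by 2.30 and Klhl31 by 1.39, whereas the neighbours of Slc8a1 differed by only 0.058 (Cfi) to 0.18 (Epha7). Among the members themselves, r was 0.96 between Atp1b1 and Atp1b2, 0.73 between Atp1b1 and Fxyd1, 0.23 between Atp1b1 and Slc8a1, and -0.88 between Atp2b1 and Fxyd1.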

How the data were processed

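RNA of 6 heart primordium samples, 3 pre-heartbeat and 3 post-heartbeat, was measured on 1-color Agilent arrays and quantified by the authors with Agilent Feature Extraction 10.7.3.1. The authors deposited a processed signal for each spot, an intensity with the background subtracted and without normalization between arrays. The authors also deposited ratios on a linear scale, shifted to the 75th percentile and divided by a baseline per probe, and their log2 differences between arrays were within 0.01 of those of the intensities for 100% of the 30367 probes. That baseline drops out of any difference between the groups.

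Controls and outlier spots (324 to 545 per array) were left out. The log2 intensity less the 75th percentile of its array, over 58717 spots, was averaged over the spots of a probe. Probes that were above background on the 3 arrays of a group were tested, of which 2 lacked a value on an array. A background close to a dim signal makes its log2 value depend on the correction. In lists and pairs, the brightest tested probe stood for its gene. Of the probes, 18006 were matched to a current symbol through RefSeq. Samples were grouped by their labels.

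Groups were compared in limma 3.58.1 (R 4.3.3, with version 1.17.8 of data.table), with Benjamini-Hochberg adjustment over all tested probes and a threshold of 0.05, without a block for the replicate number or slide. Single values and pairs were compared by a two-sided exact permutation test. The methods' t-test is the Tukey HSD test of the study, which with 2 groups equals the pooled comparison of means. The fit was tested on simulated data. The number of arrays limits the precision. The genes named are the 7 members, genes of the 4 transport lists that met a call rule, other members of the pump and exchanger families, and the 3 genes most correlated with each member. Some genes that the rule names are not reported here. The members and lists were chosen with earlier results of these data known. Alternatives were the replicate number or slide as a block, normexp with an offset of 50, quantile normalization, another percentile, the ratios of the authors, other filters, an intensity trend, the methods' t-test, a fold threshold of 2 and leaving out each array. The slide as a block together with normexp, quantile normalization, the ratios or a left-out array was chosen after seeing the data. For these combined fits the number of all tested probes called was not computed.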

Additional observations from a re-analysis of the deposited data

How the results depend on the processing

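With 3 arrays per group, limma without a block called few probes, and those counts moved with nearly every setting. Probes called higher (23) and lower (4) numbered 223 and 89 with the slide as a block, 43 and 7 with normexp, 38 and 7 with an intensity trend, 1 and 0 without a filter, 0 and 0 by the methods' t-test, and 0 to 1 in each direction with an array left out; those called higher numbered 11 with quantile normalization and 10 with the ratios of the authors. The methods' selection (365 higher, 222 lower) held 149 and 83 at 2 fold and 203 and 78 with normexp, 428 lower without a filter, 347 lower by the unadjusted limma p, and 238 to 397 higher and 123 to 352 lower with an array left out. Groups that did not overlap then numbered 1352 to 3244 higher and 1428 to 4521 lower. The 2 transport genes called higher numbered 0 by the methods' t-test, without a filter or with any array left out, and 4 with the slide as a block, which called 1 lower.

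Deviations of same-numbered arrays correlated at 0.65, -0.28 and 0.49, positive where the arrays shared a slide and negative where they did not. Because these values follow the slides, they cannot show whether the replicate numbers pair the samples. With the replicate number as a block, 95 probes were called higher and 49 lower, and 4 transport genes higher; the block changed the call of none of the 9 member probes, with Atp1b1 at 0.99 (limma adjusted p = 0.0771).

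Several of the 27 settings change only the test or the filter and leave a difference unchanged, so their agreement in direction is fixed. Atp1b1 (0.99) kept its direction in all 27. It passed the threshold with the slide as a block (0.98), also with normexp (0.96) or the ratios (0.98), and without post-heartbeat replicate 2 (0.98), pre-heartbeat replicate 2 (0.88) or pre-heartbeat replicate 3 (1.01) in that fit, and was 0.73 within slide 1 and 1.24 within slide 2. Fxyd1 also kept its direction in 27 of 27, with 1.29 and 0.44 within the slides, and passed only without pre-heartbeat replicate 2 with the slide as a block (1.0). Atp1b2 and Atp1b3 kept their direction in all 27, and their side of the threshold in every setting with a test. The differences within a slide have no p. Atp2b1 was -0.70 within slide 1, and turned to 0.12 within slide 2, which is also its value without pre-heartbeat replicate 1 in the fit with the slide. Slc8a1 at base 2018 turned to -0.061 without post-heartbeat replicate 3 and to -0.030 without pre-heartbeat replicate 1. Its probe at base 1252, which ranged from -0.17 to 0.56 over the arrays left out, turned to -0.14 and -0.17. Leaving out either array makes the slides more uneven between the groups, and the part of this in the turn was not tested. With the slide as a block and an array left out, the difference was 0.44 to 0.62 at base 2018 and 0.62 to 0.76 at base 1252. Of the pairs, Atp1b1 less Atp1b3 was 0.82 within slide 1, Atp1b2 less Atp1b1 -0.37 and -0.64 within the slides, Slc8a1 less Atp2b1 1.19 within slide 1 and 0.30 to 0.97 with an array left out, and Fxyd1 less Atp1b1 -0.57 with normexp, -0.80 within slide 2, 0.57 within slide 1, 0.18 without post-heartbeat replicate 3 and 0.17 without pre-heartbeat replicate 2; the cause was not tested. Signals near background limit what can be said of Fxyd1 and Atp2b4.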
